A study of Mus musculus with 4 samples.

Results

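The genes described here encode the constitutive proteasome, the protein machine that degrades ubiquitin-tagged proteins in nearly every cell. They were chosen by name: protein-coding genes whose mouse symbol is Psm followed by a letter from a to f and a number, without Psmb8, Psmb9 and Psmb10, the inducible catalytic subunits of the immunoproteasome. The rule found 43 genes among the 55401 genes of the files, of which 21897 were matched as protein-coding. It uses no measured value. Of the 43, 41 passed the filter on low counts and were tested. Psma8 and Psmb11 had 0 counts in all 4 libraries. One of the 41, Psmc3ip, carries a matching symbol but encodes a DNA recombination cofactor and no subunit. The other 40 tested genes encode subunits, activators, assembly chaperones and an inhibitor.

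RNA was sequenced from the semimembranosus, a hamstring muscle, of C57BL/6 mice aged 8 weeks. In both groups the left external iliac vein had been tied over a 30-gauge needle to narrow it (iliac vein stenosis, IVS). The IVS group (2 libraries) was given saline into the stomach each day, and the IVS_diosmin group (2 libraries) was given 40 mg/kg of diosmin, a flavonoid used for vein disorders, each day. No unoperated muscle was analysed here, so the data compare diosmin with saline within the stenosis model. Whether the replicates of a group were separate animals is not stated in the labels.

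The proteasome core is a barrel of stacked rings. The outer rings are built of alpha subunits, which gate the entrance, and the inner rings of beta subunits, of which Psmb5, Psmb6 and Psmb7 carry the proteolytic sites. A regulatory particle sits on the ends of the barrel. Its base contains a ring of ATPases that unfold the substrate, and its lid removes the ubiquitin chain. In skeletal muscle the ubiquitin-proteasome system is the main route by which contractile proteins are broken down, and it is known for its part in muscle wasting.

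Gene counts summed to between 13056650 and 15324354 per library. Levels are given as CPM (reads of a gene scaled to a common library size) after TMM scaling, a normalisation that equalises most genes between libraries. Differences are log2 fold changes of IVS_diosmin minus IVS with their standard error (SE), and adjusted p-values are from edgeR's quasi-likelihood test with Benjamini-Hochberg adjustment over all 13533 genes tested (threshold 0.05). An exact permutation test of 2 libraries against 2 cannot go below p = 0.333, so single values such as sums and ratios are given without a test. The muscle label matched its markers: 6 of 6 fast-fibre and common fibre genes (Acta1, Ckm, Myh4, Tnnt3, Mylpf and Pvalb) summed to between 83928 and 95314 CPM in every library, and 0 of the 6 passed the threshold. Within that sum the genes pointed in different directions. Acta1 was higher with diosmin, at 11102 and 14259 CPM in IVS against 18228 and 19763 CPM. Pvalb was lower, at 12670 and 14010 against 8658 and 8330 CPM. Myh4 was lower too, at 24440 and 22995 against 20342 and 19828 CPM. So 2 of the 6 lay lower without overlap, against 24.1% of all genes tested, and 1 higher, against 23.4%. Some markers of other fibre and cell types passed the threshold. All 6 slow-fibre genes were higher with diosmin, summing to 24.9 and 33.4 CPM in IVS against 2687 and 1072 CPM. All 6 endothelial genes had lower values with diosmin, and 5 of them passed the threshold. The 6 summed to 352 and 351 CPM in IVS against 163 and 158 CPM. Among fibro-adipogenic and smooth muscle genes 0 of 4 each passed the threshold. The non-coding RNA Rn7sk was lower, at 34.6 and 33.5 CPM in IVS against 11.9 and 5.97 CPM with diosmin (in each group replicate 1 comes first, here and throughout). So was CT010467.1, an rRNA-like gene, at 36309 and 40325 CPM against 12394 and 9447 CPM (-1.81 ± 0.23, adjusted p = 0.00269). Both were read as signs of RNA quality, and whether RNA quality or library preparation differed between the groups was not tested. Leukocyte genes summed to 9.25 to 14.1 CPM, with Ptprc, the general leukocyte marker, at most 0.848 CPM. The part of these shifts in the results that follow was not tested, and in whole muscle a smaller number of cells of a type and less RNA per cell cannot be told apart.

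The proteasome genes did not move as one with diosmin. The 7 constitutive beta genes of the core were all lower, while the 8 lid genes that the rule names lay around 0 and those of the activators pointed both ways. Psmb3 and Psmb5 fell past the threshold, 2 of the 41 tested genes (4.88%), against 2.96% of all genes tested called in either direction and 1.78% called lower, so the share of calls was not far from the background. No proteasome gene rose. Values were lower with diosmin for 29 of the 41 genes and higher for 12, and the median log2 fold change was -0.26 against 0.01 over all genes tested. Both diosmin libraries lay below both IVS libraries for 21 of the 41 genes (51.2%), against 24.1% of all genes tested. Both lay above for 5 of the 41 (12.2%), against 23.4%. At an unadjusted p under 0.05 there were 12 proteasome genes (29.3%), against 16.8% of all genes tested. Outside the beta ring 0 of 34 genes passed the threshold and 5 had an unadjusted p under 0.05. The median log2 fold change of those 34 was -0.20.

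**Figure D1:**
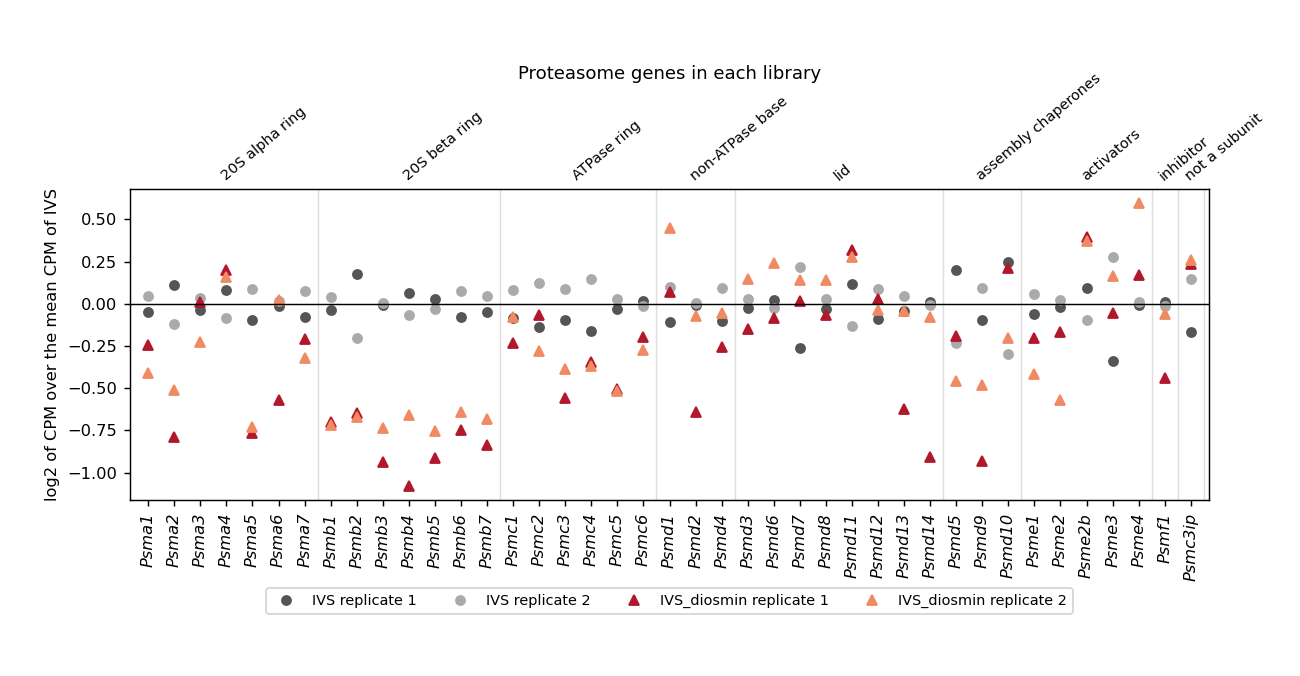
Each of the 41 tested genes in each library, as the log2 of its CPM over the mean CPM of the IVS libraries (vertical axis), with genes grouped by their place in the complex. Circles are IVS and triangles IVS_diosmin; the triangles of the 7 beta genes all lie below the circles, whereas those of the lid genes lie on both sides of 0.

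Of the groups of subunits, the beta ring had the lowest median log2 fold change. Psmb3, a structural beta subunit, stood at 52.5 and 52.9 CPM in IVS and at 27.5 and 31.7 CPM with diosmin, a fall of 43.9% (log2 fold change -0.83 ± 0.20 SE, adjusted p = 0.0476). Psmb5, which carries the chymotrypsin-like site, stood at 48.2 and 46.2 CPM in IVS and at 25.1 and 28.0 CPM with diosmin, a fall of 43.8% (-0.83 ± 0.20, adjusted p = 0.0481). In both genes the groups were far apart and the replicates close together, though the Psmb5 counts are uncertain because most of its transcript is near-identical to another gene. Psmb4, which has a tail that helps the core to assemble, was at 74.3 and 68.1 CPM against 33.7 and 45.1 CPM (-0.85 ± 0.21, adjusted p = 0.0533). Psmb7, with the trypsin-like site, was at 89.0 and 95.1 CPM against 51.6 and 57.4 CPM (-0.76 ± 0.20, adjusted p = 0.0621). These 2 genes missed the threshold by little. Psmb1, a structural subunit, was at 59.8 and 63.1 CPM against 37.8 and 37.4 CPM (-0.71 ± 0.20, adjusted p = 0.0763). Psmb6, with the caspase-like site, was at 93.4 and 104 CPM against 58.7 and 63.3 CPM (-0.69 ± 0.20, adjusted p = 0.0841). Psmb2, also structural, was at 28.0 and 21.5 CPM against 15.8 and 15.6 CPM (-0.66 ± 0.23, adjusted p = 0.155). Its IVS libraries had the largest ratio to each other of the 7 genes, at 1.30, and its adjusted p was the highest of them.

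The 7 log2 fold changes therefore spanned only -0.85 to -0.66, with a median of -0.76. In all 7 genes both diosmin libraries lay below both IVS libraries, against 24.1% of all genes tested. The calls of Psmb3 and Psmb5 sit at the edge of the threshold. Both were lost without any 1 of the 4 libraries: without IVS replicate 1 the adjusted p was 0.119 for Psmb3 and 0.135 for Psmb5, without IVS replicate 2 it was 0.239 and 0.216, without IVS_diosmin replicate 1 it was 0.275 and 0.274, and without IVS_diosmin replicate 2 it was 0.0786 and 0.0938. With the replicate block they were lost as well (0.135 and 0.139). DESeq2 and edgeR with no filter on low counts each called 6 of the 7 genes, all but Psmb2. Those 2 settings also called more genes in all. DESeq2 called 606 of 9597 genes and the fit with no filter 919 of 22446, against 400 of 13533 in the main fit. The direction did not depend on the setting: each of the 7 had a negative log2 fold change under all 11 alternatives.

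**Figure D2:**
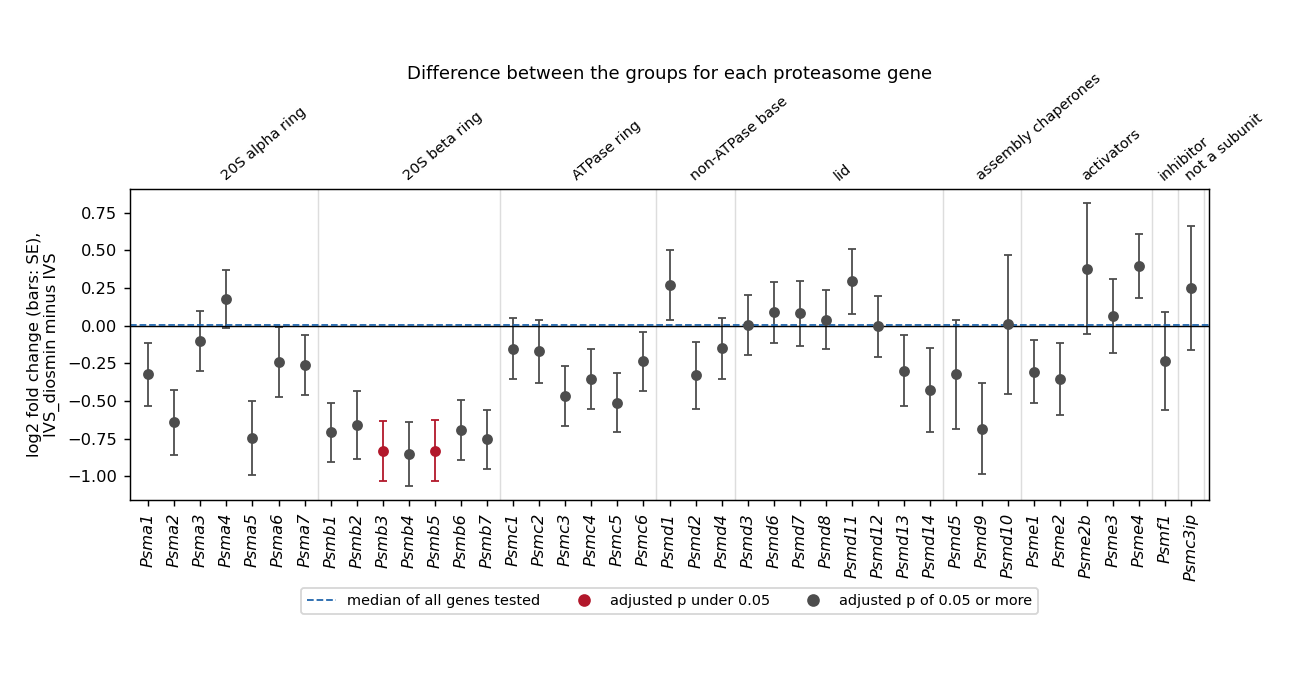
Log2 fold change of IVS_diosmin minus IVS for each of the 41 tested genes (points) with its standard error (bars), by place in the complex; red marks an adjusted p under 0.05 and the dashed line the median of all genes tested. The 7 beta genes form a block between -0.85 and -0.66 in which Psmb3 and Psmb5 are red, and the lid genes scatter around the dashed line.

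The promoters of the beta genes are shown because these genes had lower values together. RefSeq sequences on GRCm38.p6 were at hand for 36 of the 43 genes, in 39 windows reaching from 250 bases before to 50 after an annotated start, and for 4 of the 7 beta genes. Each sequence below is upstream of the start on the gene's own strand, 5′ to 3′, without bases that lie inside the gene as GENCODE draws it. The Psmb3 stretch is chr11:97703284-97703398 (plus strand), that of Psmb4 is chr3:94886962-94887108 (minus), that of Psmb5 is chr14:54618023-54618145 (minus) and that of Psmb6 is chr11:70525207-70525356 (plus). Capitals mark the CCAAT box (CCAAT) in Psmb3, and the core of the antioxidant response element (TGACNNNGC), the kind of sequence that Nfe2l1 and Nfe2l2 bind, in Psmb5 and Psmb6; Psmb4 held neither.
Psmb3: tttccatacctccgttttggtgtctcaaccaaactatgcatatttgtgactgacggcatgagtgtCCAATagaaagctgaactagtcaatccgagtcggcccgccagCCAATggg
Psmb4: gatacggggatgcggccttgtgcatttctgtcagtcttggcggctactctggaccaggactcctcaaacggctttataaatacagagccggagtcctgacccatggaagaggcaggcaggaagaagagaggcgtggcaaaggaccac
Psmb5: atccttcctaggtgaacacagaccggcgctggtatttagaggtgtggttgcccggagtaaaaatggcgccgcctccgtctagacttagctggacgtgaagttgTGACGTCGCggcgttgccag
Psmb6: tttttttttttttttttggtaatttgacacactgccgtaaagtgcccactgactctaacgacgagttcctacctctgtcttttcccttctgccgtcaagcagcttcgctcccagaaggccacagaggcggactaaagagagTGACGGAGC

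Both motifs were searched on both strands, and no match of one overlapped a match of the other in the sequences shown. The antioxidant response element core lay in 6 of the 36 proteasome genes (16.7%), against 14.0% of the 27025 genes of the promoter table. Besides Psmb5 and Psmb6 these were Psmc6, Psmd9, Psmd12 and Psme4, whose values pointed in different directions (log2 fold changes of -0.24, -0.68, 0.00 and 0.40). The CCAAT box lay in 14 of the 36 (38.9%), against 41.1%. A match is only a match of letters in this window.

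The alpha ring, the gate of the core, had lower values in 6 of 7 genes, but none passed the threshold and the median log2 fold change was -0.26. The genes differed among themselves more than those of the beta ring. Psma5 was at 15.6 and 17.7 CPM against 9.79 and 10.1 CPM (-0.74 ± 0.24, adjusted p = 0.134). Psma2 was at 36.0 and 30.6 CPM against 19.3 and 23.4 CPM (-0.64 ± 0.22, adjusted p = 0.143). Psma5 thus lay within the range of the beta ring (-0.85 to -0.66), and Psma2 just outside it. Psma4 alone had higher values, at 75.8 and 67.7 CPM against 82.3 and 80.0 CPM (0.18 ± 0.20, adjusted p = 0.723). Psma1, Psma3, Psma6 and Psma7 lay between -0.32 and -0.10. For Psma6 only IVS_diosmin replicate 1 was low (25.8 CPM, against 37.8, 38.5 and 38.7 CPM in the other libraries), so the groups overlapped.

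The ATPase ring of the base, which unfolds and threads the substrate, had lower values in 6 of 6 genes, and the median log2 fold change was -0.30 with 0 past the threshold. Psmc5 was at 86.3 and 89.9 CPM against 62.1 and 61.6 CPM (-0.51 ± 0.19, adjusted p = 0.192). Psmc3 was at 108 and 123 CPM against 78.4 and 88.4 CPM (-0.47 ± 0.20, adjusted p = 0.256). In both the groups were apart, with the replicates of Psmc5 nearly equal. Psmc1, Psmc2, Psmc4 and Psmc6 lay between -0.35 and -0.15, and in 4 of the 6 genes the diosmin libraries lay below the IVS libraries, against 24.1% of all genes tested.

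In the rest of the base, Psmd1 and Psmd2, the large scaffold subunits, pointed in opposite directions. Psmd1 was at 15.2 and 17.5 CPM against 17.1 and 22.2 CPM (0.27 ± 0.23, adjusted p = 0.627). Psmd2 was at 103 and 104 CPM against 66.4 and 98.3 CPM (-0.33 ± 0.22, adjusted p = 0.510). Only IVS_diosmin replicate 1 was clearly low for Psmd2, at 67.5% of replicate 2. Psmd4, a ubiquitin receptor, differed by -0.15 ± 0.20.

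The 8 lid genes that the rule names had a median log2 fold change of 0.02, with 3 lower and 5 higher values and 0 past the threshold. Sem1, a lid subunit whose symbol falls outside the rule, was at -0.72. It is not part of the lid values, sums and ratios given here. Psmd3, Psmd6, Psmd7, Psmd8 and Psmd12 lay between 0.00 and 0.09, each with an SE of 0.20 to 0.22. Psmd3, Psmd6, Psmd7 and Psmd8 turned to lower values when libraries were scaled by their size alone, as did Psmd10 and Psme3. Psmd14, the deubiquitinase of the lid, had the smallest p of the 8 together with Psmd11. It was at 18.2 and 18.0 CPM in IVS and at 9.64 and 17.1 CPM with diosmin (-0.43 ± 0.28, adjusted p = 0.488). As for Psmd2, the difference sat mostly in IVS_diosmin replicate 1, at 56.2% of replicate 2, and Psmd13 did likewise at 66.7%. Psmd11, a scaffold of the lid, was at 21.4 and 18.0 CPM against 24.6 and 23.9 CPM (0.29 ± 0.22, adjusted p = 0.551).

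A further 3 Psmd genes encode chaperones that help to assemble the base and then leave it, and 0 of these 3 passed the threshold. Psmd9 was at 9.61 and 10.97 CPM against 5.40 and 7.36 CPM (-0.68 ± 0.30, adjusted p = 0.277). Its log2 fold change also lay within the range of the beta ring. Psmd5 was at 6.46 and 4.79 CPM against 4.93 and 4.10 CPM (-0.32 ± 0.36, adjusted p = 0.727), with overlapping groups. Psmd10, with 28 to 58 counts per library, differed by 0.01 ± 0.46, and a change within that error was not detectable at this depth.

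The activators open the core without the regulatory particle. Of the 5 activator genes 0 passed the threshold, 2 had lower values and 3 higher. Psme4, which encodes PA200, was at 86.9 and 87.8 CPM in IVS and at 98.4 and 132 CPM with diosmin (0.40 ± 0.21, adjusted p = 0.374). Both diosmin libraries were above both IVS libraries, but they differed from each other by more than replicate 1 differed from IVS. Psme2, a subunit of the interferon-inducible activator PA28, was at 17.4 and 17.9 CPM against 15.7 and 11.9 CPM (-0.35 ± 0.24, adjusted p = 0.513), and its partner Psme1 differed by -0.31 ± 0.21. Psme3, the nuclear activator, differed by 0.06 ± 0.25. The Psme2 copy Psme2b differed by 0.38 ± 0.43. Psmf1, a proteasome inhibitor, was at 6.86 and 6.74 CPM against 5.01 and 6.53 CPM (-0.24 ± 0.33, adjusted p = 0.792). Psmc3ip, which is no subunit, was at 2.74 and 3.41 CPM against 3.62 and 3.68 CPM (0.25 ± 0.41, adjusted p = 0.826).

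Psma8 replaces an alpha subunit in testis germ cells and Psmb11 is the beta subunit of thymic epithelium. Both had 0 counts in 4 of 4 libraries, which allows up to 0.172, 0.244, 0.231 and 0.208 CPM in the order of libraries (3 counts each, counting error only). Of the thymic markers Prss16 had 0 counts in every library and Foxn1 at most 0.0771 CPM. Of the testis markers Prm1 had 0 counts and Ddx4 at most 0.347 CPM, whereas Sycp3 was detected, at 5.89 and 5.53 CPM in IVS and 4.16 and 7.22 CPM with diosmin.

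Summed over each group of subunits, the beta ring stood out by size. Its 7 genes summed to 445, 451, 250.1 and 279 CPM, a mean of 448 ± 3.90 (SD, n = 2) in IVS and 264 ± 20.1 (SD, n = 2) with diosmin, which is 41.0% less. The difference was larger than the spread between replicates. Against the IVS mean the ring stood at 55.8% and 62.2% in the diosmin libraries, where the 6 endothelial markers stood at 46.3% and 44.9%, and their part in it was not tested. The alpha ring summed to 302 and 301 CPM in IVS against 268 and 268 CPM (11.3% less), and the ATPase ring to 389 and 435 CPM against 319 and 323 CPM (22.1% less), both without overlap. The non-ATPase base (255 and 278 against 207 and 262 CPM) overlapped between the groups. The lid overlapped too, at 369 and 397 CPM against 358 and 418 CPM, and so did the activators, at 152 and 164 CPM against 163 and 192 CPM. Within a library, the sum of the beta ring over that of the alpha ring was 1.48 and 1.50 in IVS and 0.935 and 1.04 with diosmin. The sum of the beta ring over that of the lid was 1.21 and 1.13 against 0.700 and 0.667. The sum of the alpha ring over that of the lid was 0.818 and 0.759 against 0.749 and 0.640. These ratios do not depend on the scaling of the libraries. Beta over alpha did not overlap between the groups, but a difference between the rings was not tested. The alpha sum joins genes with log2 fold changes from -0.74 (Psma5) to 0.18 (Psma4).

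**Figure D3:**
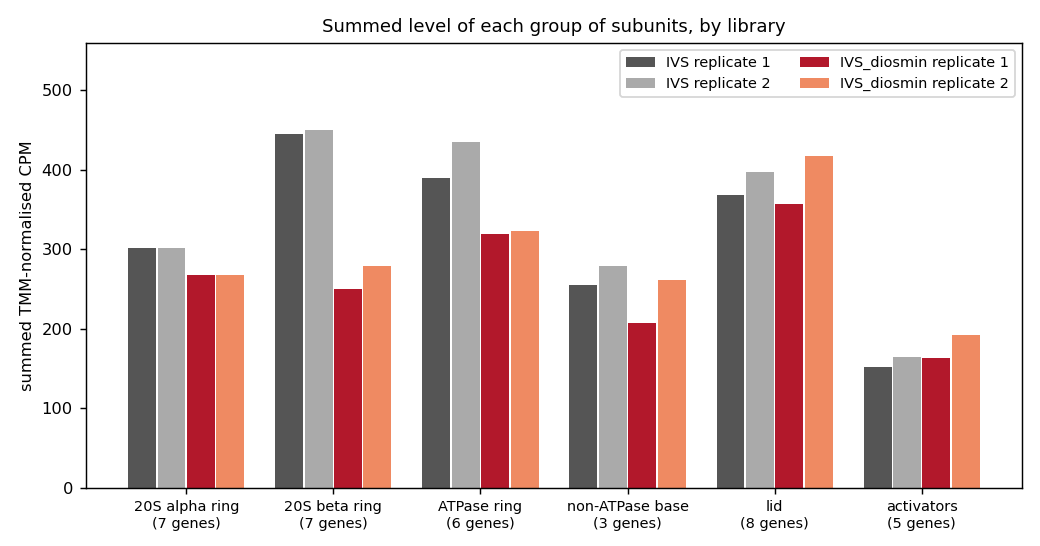
Summed TMM-normalised CPM of the tested genes of each group of subunits (bars, 1 per library; vertical axis from 0). The beta ring bars stand at 445 and 451 CPM in IVS and at 250.1 and 279 CPM with diosmin, while the lid bars overlap; sums are not adjusted for gene length, so heights compare libraries and not groups of subunits.

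Levels can be compared between genes only per length. Per kilobase of exon, the 40 tested genes other than Psmc3ip spanned 0.778 (Psmd5, an assembly chaperone) to 63.2 (Psmc5) CPM per kilobase in IVS. Their median was 14.2. Among the genes of the core, base and lid the lowest was Psmd1, at 2.25. The highest core genes were Psmb6 at 52.7 ± 3.94 (SD, n = 2) and Psmb5 at 52.5 ± 1.54, which do not differ beyond their spread, and Psmd4 of the base stood with them at 52.3 ± 5.08. The lowest beta gene was Psmb1, at 13.4 ± 0.513 CPM per kilobase. The alpha ring spanned 9.07 (Psma2) to 30.9 (Psma6), the lid 3.09 (Psmd11) to 30.7 (Psmd8), the activators 3.01 (Psme2b) to 13.4 (Psme1) and the assembly chaperones 0.778 (Psmd5) to 1.90 (Psmd10). So the chaperones, which act in passing, were at a lower level than every core gene. With diosmin the highest gene was Psmd4, at 47.1 ± 4.58, ahead of Psmc5 at 44.3 ± 0.247, a gap within the spread. Subunits that stand in equal number in the complex thus differed in RNA level by several-fold, but the order depends on the length used: with the longest transcript in place of all exons the median was 24.0 and the highest gene was Psmb6, at 102 CPM per kilobase.

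**Figure D4:**
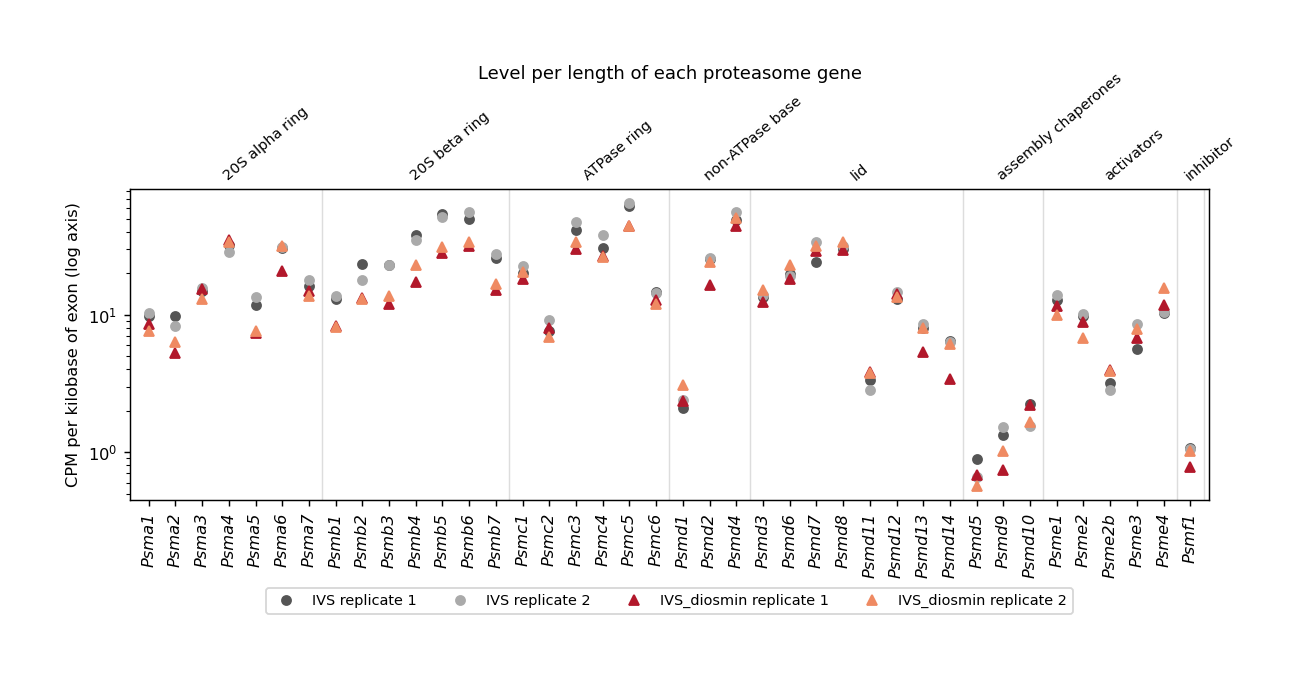
Level of each of the 40 tested genes other than Psmc3ip in each library as CPM per kilobase of exon (vertical log axis), by place in the complex. Circles are IVS and triangles IVS_diosmin. The assembly chaperones and Psmf1 lie lowest, and Psmc5, Psmd4, Psmb5 and Psmb6 highest, with IVS means of 52.3 to 63.2.

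The inducible catalytic subunits Psmb8, Psmb9 and Psmb10 replace Psmb5, Psmb6 and Psmb7 when the immunoproteasome forms, as it does under interferon. None of the 3 passed the threshold. Psmb8 was at 9.32 and 9.10 CPM against 12.0 and 10.9 CPM (0.31 ± 0.27, adjusted p = 0.620), and Psmb10 was at 11.6 and 11.1 CPM against 11.6 and 6.11 CPM (-0.36 ± 0.32, adjusted p = 0.645). Psmb9 differed by 0.26 ± 0.38. The ratio of Psmb8 to the subunit it replaces, Psmb5, was 0.193 and 0.197 in IVS and 0.480 and 0.389 with diosmin, 2.23 times the IVS mean. For Psmb9 over Psmb6 it was 0.0624 and 0.0376 against 0.124 and 0.0713, also without overlap. For Psmb10 over Psmb7 it was 0.130 and 0.117 against 0.226 and 0.106, with overlap. The first of these ratios differed by more than its replicate spread. Psmb5, its denominator, passed the threshold, and Psmb8 did not.

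**Figure D5:**
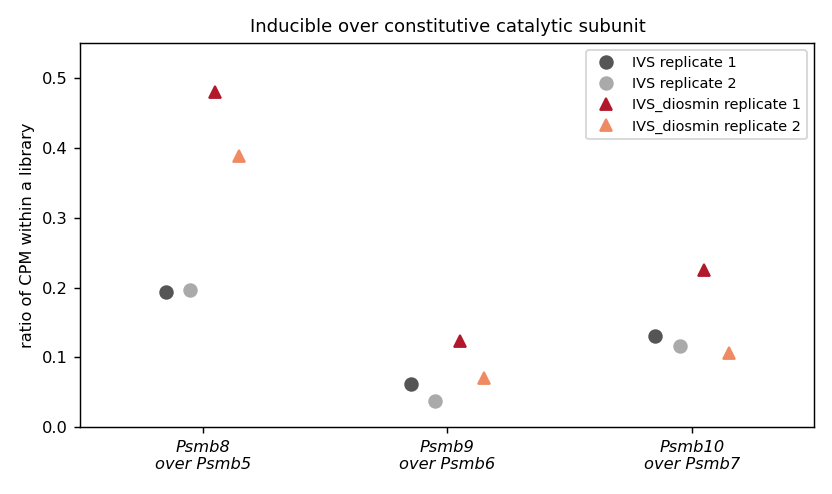
Ratio of the CPM of each inducible catalytic subunit to that of the constitutive subunit it replaces, within each library (circles IVS, triangles IVS_diosmin; vertical axis from 0). Psmb8 over Psmb5 lies at 0.193 and 0.197 in IVS and at 0.480 and 0.389 with diosmin, and Psmb10 over Psmb7 overlaps; CPM are not adjusted for length, so a ratio is to be compared between libraries only.

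Genes that work with the proteasome were read from lists. Of 17 assembly factors and proteasome-bound proteins outside the naming rule, 0 passed the threshold (12 lower and 5 higher values, median log2 fold change -0.27). Sem1, a small subunit of the lid whose name does not follow the rule, was at 67.5 and 66.7 CPM against 40.7 and 40.8 CPM (-0.72 ± 0.19, adjusted p = 0.0715), a difference of the size seen in the beta ring. It passed with DESeq2 (0.0259) and with no filter on low counts (0.0330). Ubr4, a large ubiquitin ligase, was at 60.9 and 69.6 CPM against 100.2 and 97.5 CPM (0.60 ± 0.20, adjusted p = 0.134). Of 11 tested genes that control proteasome transcription, 0 passed. Nfe2l1, the factor known to raise proteasome genes when the proteasome is inhibited, was at 122 and 105 CPM against 141 and 146 CPM (0.34 ± 0.20, adjusted p = 0.435). The smallest p of this list belonged to Stat3 (-0.58 ± 0.21, adjusted p = 0.175) and Maff, a small partner of the Nfe2l factors (-1.10 ± 0.42, adjusted p = 0.192). Of 15 genes of ubiquitin and its handling, 1 fell (6.67%, against 1.78% of all genes tested called lower) and 0 rose. Rps27a, which encodes ubiquitin fused to a ribosomal protein, was at 59.1 and 108 CPM against 35.0 and 40.3 CPM (-1.14 ± 0.27, adjusted p = 0.0476). Its IVS libraries stood well apart, with replicate 2 the higher. The call was lost without IVS replicate 2 (-0.66, adjusted p = 0.376), without IVS_diosmin replicate 1 (0.328) or replicate 2 (0.169), with the replicate block (0.108), with DESeq2 size factors in edgeR (0.0514) and with the length or GC trend removed (0.0532 and 0.0603).

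Some members share sequence with other genes, so their counts are uncertain. Transcript stretches of at least 50 bases and 98% identity with another gene covered 88.4% of the longest Psmb5 transcript (Gm3375 and Mir686), 81.4% of that of Psma5 (mainly Gm8394), 82.5% of that of Psme2 and 94.9% of that of Psme2b (each other), 23.4% of that of Psma3 (Gm13835) and 19.8% of that of Psmb3 (AC114990.1). Psmb1, Psmb2, Psmb4, Psmb6 and Psmb7 had none, and their log2 fold changes were -0.71, -0.66, -0.85, -0.69 and -0.76, against -0.83 for both Psmb3 and Psmb5. Reads aligned to more than 1 place made up 37.7% and 38.8% of the reads in IVS and 45.6% and 43.6% with diosmin, a difference that moves with the groups and whose part in these values was not tested. Exons on the opposite strand overlapped those of Psmb7 (405 bases, Nek6), Psmc3 (215, Slc39a13), Psmd13 (342, Sirt3), Psmd1 (252, Htr2b) and Psmd9 (1849, Gm26745), and without strand the reads of such a pair cannot be told apart. For Psmb7 the partner Nek6 had 0.611 and 0.609 counts per Psmb7 count in IVS and 0.837 and 0.950 with diosmin.

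The members lie on 16 chromosomes of GRCm38 as annotated by GENCODE M21. Chromosome 11 carries 10 of the 43 (23.3%), against 7.46% of protein-coding genes, among them Psmb3 (chr11:97703399-97713500), Psmb6 (chr11:70525367-70527858) and Psme4 (chr11:30771726-30880361), with log2 fold changes of -0.83, -0.69 and 0.40. Psmb5 (chr14:54614119-54618022) lies 3410 bases from Psmb11, which had 0 counts. Psmb4 is at chr3:94884093-94886961, Psmb7 at chr2:38588036-38644087, Psmb1 at chr17:15475021-15499751 and Psmb2 at chr4:126677630-126709714. The 7 beta genes are thus spread over 6 chromosomes.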

How the data were processed

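Per the labels' protocols, muscle was frozen, RNA was extracted with Trizol, and mRNA was captured with poly-T beads, and a NEBNext Ultra RNA kit was used, with no mention of strand. The authors deposited raw counts of reads per Ensembl gene, 1 file per library in the layout of HTSeq. HISAT2 2.1.0, HTSeq and mm10 are named per the submitters' processing notes. For the HTSeq version, annotation, strand and filters the entry is not given in the sources used here. Its 5 summary lines, which hold 72.3% to 75.1% of the reads accounted for, were left out of all totals.

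Symbols, lengths and positions came from GENCODE M21, where 55141 of 55401 identifiers matched; a symbol shared by several genes went to the one with the higher mean. Counts were tested with edgeR 4.0.16 in R 4.3.3 (filterByExpr, TMM, robust quasi-likelihood fit, 2-sided, Benjamini-Hochberg over 13533 genes, threshold 0.05). The SE is the size of the log2 fold change over the square root of F. The biological coefficient of variation was 0.235. On simulated data 186 of 200 genes changed by 2 on the log2 scale were recovered among 13165 tested, with 13 false calls. The largest difference of a proteasome gene was smaller, at -0.85 (Psmb4), and recovery of differences of that size was not tested. Replicates differed beyond sampling noise (chi-square per degree of freedom 30.8 for the IVS pair, 21.1 for the IVS_diosmin pair), so each was counted as a sample of its own, which does not show that they are separate animals. The p-values reflect the spread of these samples alone, and that spread may be technical.

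Members, lists and tests were chosen with earlier results of these data known. Full values are given for members past the threshold, the 2 of smallest p in each group of subunits and the highest and lowest level per length; of the lists, for genes past the threshold and the 2 of smallest p. The values of the other beta genes, Psma4, Psma6, Nfe2l1 and the ring sums were added after values were seen. Paaf1 was not analysed here, and 1 gene of the lists that the rule would name is not reported here. DESeq2 1.42.0, other scaling, no filter, a replicate block and leaving out each library were alternatives. Removing a trend with the length of all exons of a gene, or with the GC of its longest transcript, was added after seeing the data. Transcripts were compared with BLAST.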

Additional observations from a re-analysis of the deposited data

How the results depend on the processing

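Over the 41 tested proteasome genes, 399 values under the alternatives kept their direction and side of the threshold, 14 lost the call (Psmb3 and Psmb5), 11 gained one (Psmb1, Psmb4, Psmb6 and Psmb7) and 24 changed sign, none of them of a called gene. Psmd10, Psme2b and Psmc3ip had no adjusted p with DESeq2, and those values are not in this tally. The count of all genes past the threshold, 400, was 919 with no filter on low counts, 606 with DESeq2 and 38 to 366 with 1 library left out. The count of proteasome genes, 2, all in the beta ring, was 6 with no filter, 6 with DESeq2, 0 with DESeq2 size factors in edgeR, 0 with the length trend removed and 0 to 1 with 1 library left out. The 1 was Psmb4, without IVS_diosmin replicate 2 (adjusted p = 0.0456). The labels do not say whether a replicate number stands for a shared animal, litter or batch. Deviations of same-numbered replicates correlated at 0.0115 between the groups, which cannot decide it. A replicate block left 93 genes in all, 0 proteasome genes and 0 genes of the lists. The count over the lists, 1, was 0 with DESeq2 size factors, 2 with library size alone, 4 with no filter, 3 with DESeq2, 0 with the length trend removed and 0 to 3 with 1 library left out. The median log2 fold change of the proteasome genes, -0.26, was -0.37 with library size alone and -0.30 to -0.22 with 1 library left out; that of the beta ring, -0.76, was -0.86 and -0.85 to -0.68. The median level per length, 14.2, was 24.0 with the longest transcript. Library size alone moved the median of all genes to -0.11 and the higher share of calls from 39.8% to 25.4%. There 6 genes changed sign, to -0.10 (Psmd3), -0.024 (Psmd6), -0.0085 (Psmd7), -0.069 (Psmd8), -0.13 (Psmd10) and -0.023 (Psme3). With no filter Psmd3 was at -0.0025 and Psmd10 at -0.0032, with the replicate block Psmd3 was at -0.0011, with the GC trend removed Psmd3 was at -0.0066 and Psmd12 at 0.017, and with the length trend removed Psmd12 was at 0.018. With 1 library left out, values ran from -0.58 to 0.023 for Psma6, -0.16 to 0.14 for Psmd3, -0.10 to 0.24 for Psmd6, -0.14 to 0.34 for Psmd7, -0.081 to 0.14 for Psmd8, -0.092 to 0.079 for Psmd12, -0.23 to 0.31 for Psmd10, -0.22 to 0.39 for Psme3, -0.12 to 0.59 for Psmb9 and -0.90 to 0.017 for Psmb10. Where a group keeps 1 library, that library is assumed to vary like the others. Genes with few counts, such as Psmd10 and Psmc3ip, have wide errors that can hide a change.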

Other observations

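A head-to-head start, in which a protein-coding gene on the opposite strand begins within 1000 bases upstream, was found for 7 of the 43 proteasome genes (16.3%). The share was 1489 of 21897 protein-coding genes (6.80%). Non-coding partners were not counted. The pairs were Psma2 with Mrpl32, Psma7 with Ss18l1, Psmb1 with Tbp, Psmc2 with Dnajc2, Psmc5 with Ftsj3, Psmd10 with Atg4a and Psme2 with Rnf31. None of the 7 partners passed edgeR's threshold, and 0 of them had an unadjusted p under 0.05. Their log2 fold changes ran from 0.03 (Ftsj3) to 0.93 (Ss18l1), all on the higher side, while 6 of the 7 proteasome genes beside them had lower values. For Psmb1, at -0.71 ± 0.20, the start of Tbp, the TATA-binding protein gene, lies 137 bases away, and Tbp was at 15.4 and 11.8 CPM in IVS against 17.7 and 11.9 CPM with diosmin (0.12 ± 0.27), with overlapping groups. For Psma2, at -0.64 ± 0.22, the start of Mrpl32, a mitochondrial ribosomal protein gene, lies 75 bases away, and Mrpl32 was at 11.4 and 11.5 CPM against 13.5 and 14.0 CPM (0.26 ± 0.24). The difference between the genes of a pair was not tested.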
